A study of Homo sapiens with 8 samples.

Results

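The response of MDA-MB-231 cells to the compound 1-S was measured by RNA sequencing of poly-A-selected RNA in 4 libraries of a series of 8. The tested cells were given 1-S and were kept dark (1-S dark) or irradiated with UV-A (1-S UV-A), and the cells they were set against had received the solvent alone and the same light (vehicle dark, vehicle UV-A). These 4 libraries, 1 for each group, were all those of the second of 2 rounds, and the compound was compared with the vehicle over both light conditions, with light as a block. All 58676 gene IDs of the round 2 count table entered, including 13335 that the tables of round 1 lack. MDA-MB-231 is an established human cell line from a triple-negative breast cancer. 1-S is (2-dibenzothienylmethyl)triphenylphosphonium and was given at 10 µM for 24 h. The vehicle was 1% DMSO, and irradiated plates spent 30 min below 8 UV-A bulbs with emission from 325 to 375 nm. All 4 wells held cells at passage 32 to 34, and the wells of a light condition shared a plate. The other 4 libraries were of round 1, with cells at passage 8, and held the S-oxide of the compound, 1-SO, again dark or irradiated, beside vehicle cells of their own.

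Triphenylphosphonium is a lipophilic cation that accumulates in mitochondria, driven by the membrane potential, and is widely used to carry other molecules there. Cells answer misfolded protein in the cytosol through the transcription factor HSF1, which binds heat shock elements and switches on chaperone genes. Trouble in mitochondria or the endoplasmic reticulum, or a lack of amino acids, can act through phosphorylation of the initiation factor eIF2α and translation of ATF4, the path known as the integrated stress response. Immediate early genes such as FOS are transcribed within minutes of many signals without new protein synthesis.

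Counted reads came to 21.8 M in 1-S dark and 19.1 M in 1-S UV-A, against 22.6 M in vehicle dark and 21.8 M in vehicle UV-A. The 10 most abundant genes held 7.04 and 7.09% of the reads in the 1-S libraries, dark and UV-A, against 4.66 and 4.54% in the vehicle libraries. At least 1 read was found for 24644 and 23114 gene IDs in the 1-S libraries and for 22495 and 21995 in the vehicle libraries. A count of 0 allows a level of up to 0.133 to 0.157 CPM (3 reads). All 8 markers of MDA-MB-231 cells were detected, and 7 of them were lower with 1-S, as given with the matrix genes. VIM, the mesenchymal filament vimentin, was at 219 and 249.9 FPKM, the authors' level scaled for gene length and library size, in the 1-S libraries and at 220.7 and 225.6 FPKM in the vehicle libraries. ESR1, the estrogen receptor that this line lacks, had 15 and 7 reads in the 1-S libraries and 1 and 2 reads in the vehicle libraries. Of 7 fibroblast markers, 2 had enough reads to be tested, the collagen COL1A1, which rose, and PDGFRB, at 1.22 and 0.801 FPKM in 1-S cells and 1.20 and 1.20 FPKM in vehicle cells, while DCN had 0 reads in all 4 libraries.

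1-S was compared with vehicle to see what the compound did to transcripts whatever the light. A filter on low counts left 15434 genes. The quasi-likelihood test of edgeR called 8641 of them (56.0%) at a Benjamini-Hochberg adjusted p below 0.05, of which 4314 (28.0%) were higher and 4327 (28.0%) lower with 1-S. Since over 1 gene in 2 was called, the calls of at least 2-fold are the more selective count, a rule added after the data were examined. They numbered 2483 (16.1%), with 1593 higher (10.3%) and 890 lower (5.77%). Called changes of at least 4-fold were 549 higher and 129 lower, and those of at least 16-fold were 81 higher and 2 lower. Each compound and light had 1 well, so the only spread in these data is how far the 1-S effect differs between lights (1 residual degree of freedom). For each gene the fit used the trend of that spread over all genes, not the gene's own spread. Its p-values do not measure the spread between wells treated alike. The Wald test of DESeq2 called 2781 genes higher.

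The ratios were also taken within each light condition. By size alone, and with no test, 1853 genes were at least 2-fold higher and 1059 at least 2-fold lower in 1-S dark than in vehicle dark. The numbers were 2001 and 1282 for 1-S UV-A against vehicle UV-A, with 1322 higher and 692 lower in both. Across the 10958 genes with a mean of at least 100 reads, the log2 ratios of the 2 light conditions had a Pearson r of 0.934, a description across genes, which are not independent and share their libraries. Light itself, as a term of the same edgeR fit, was called for 63 genes. In the authors' deposited tables, which compare 1 library with 1 library, 603 genes were higher and 247 lower in the dark, and 574 higher and 312 lower under UV-A, at an adjusted p below 0.05. Of these, 368 higher genes were in both deposited tables, 61.0% of those in the dark and 64.1% of those under UV-A. For lower genes the authors' deposited tables shared 144, 58.3% and 46.1% of those in the dark and under UV-A.

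**Figure D1:**
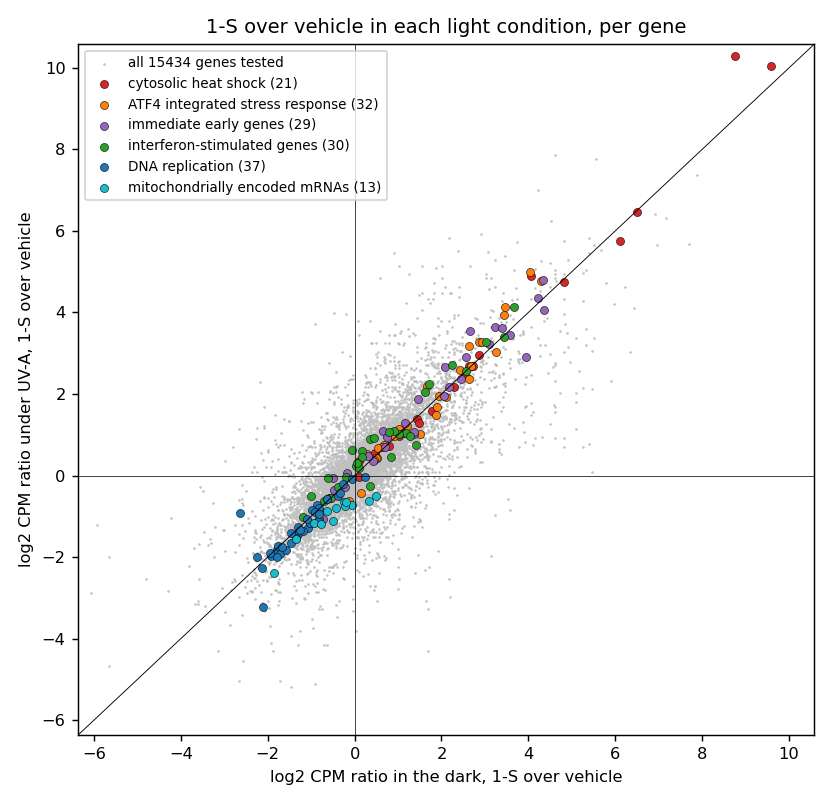
Log2 CPM ratio of 1-S over vehicle in the dark (horizontal axis) and under UV-A (vertical axis), with 1 point per gene tested and 6 gene lists in colour; the thin diagonal marks equal ratios. Over all genes with at least 100 reads on average, r was 0.934. Heat shock genes lie at the upper right and DNA replication genes at the lower left, and each mitochondrially encoded mRNA lies below the diagonal.

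The regulatory sequence ahead of some stress genes is shown first, for heat shock genes, which had the highest median change of the lists, and for genes of the integrated stress response. The windows are the 250 bases before the annotated start, 5′ to 3′ on the gene's strand, from RefSeq on GRCh38.p14. Capitals in the first 3 mark heat shock elements of 3 units, GAANNTTCNNGAA or its reverse complement TTCNNGAANNTTC, where overlapping matches run together. Capitals in the last 2 mark the composite site of ATF4 and C/EBP proteins, TGATGNAAT or TGATGNAAC or their reverse complements ATTNCATCA and GTTNCATCA.
HSPA6 (chr1:161524290-161524539, plus strand): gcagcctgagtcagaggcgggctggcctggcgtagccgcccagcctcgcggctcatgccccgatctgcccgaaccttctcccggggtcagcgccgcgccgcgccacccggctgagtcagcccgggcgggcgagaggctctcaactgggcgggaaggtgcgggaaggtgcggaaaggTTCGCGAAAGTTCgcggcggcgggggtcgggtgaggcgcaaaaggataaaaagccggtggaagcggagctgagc
CHORDC1 (chr11:90223050-90223299, minus strand): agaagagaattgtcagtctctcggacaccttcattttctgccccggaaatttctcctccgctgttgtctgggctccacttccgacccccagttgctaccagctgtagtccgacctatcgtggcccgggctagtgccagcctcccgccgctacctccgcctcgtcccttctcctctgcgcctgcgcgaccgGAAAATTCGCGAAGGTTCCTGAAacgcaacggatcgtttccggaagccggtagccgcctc
HSPA8 (chr11:123062137-123062386, minus strand): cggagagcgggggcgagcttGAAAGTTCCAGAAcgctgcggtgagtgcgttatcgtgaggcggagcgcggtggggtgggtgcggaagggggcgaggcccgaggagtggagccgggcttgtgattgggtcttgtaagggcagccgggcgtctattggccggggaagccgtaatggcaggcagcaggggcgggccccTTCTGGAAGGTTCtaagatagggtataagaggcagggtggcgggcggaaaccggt
CHAC1 (chr15:40953221-40953470, plus strand): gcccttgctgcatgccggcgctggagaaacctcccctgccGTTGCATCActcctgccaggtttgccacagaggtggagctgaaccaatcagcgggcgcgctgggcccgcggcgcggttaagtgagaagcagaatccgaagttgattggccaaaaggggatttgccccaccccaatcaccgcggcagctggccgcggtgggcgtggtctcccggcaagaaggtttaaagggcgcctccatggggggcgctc
ASNS (chr7:97872409-97872658, minus strand): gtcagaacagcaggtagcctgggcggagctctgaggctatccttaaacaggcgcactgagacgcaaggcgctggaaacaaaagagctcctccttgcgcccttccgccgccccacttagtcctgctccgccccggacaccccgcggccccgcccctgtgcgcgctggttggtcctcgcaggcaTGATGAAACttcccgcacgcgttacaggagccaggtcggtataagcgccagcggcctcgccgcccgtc
RefSeq windows were at hand for 19 of the 21 heat shock genes tested, some with several starts, and 5 of their 30 windows held the heat shock motif (16.7%), against 155 of all 35116 windows (0.441%). The other 2 genes with a match were HSP90AA1 and HSP90AB1. HSPA1A, HSPA1B, DNAJB1, HSPB8, HSPB1, HSPH1, BAG3 and DNAJB4 had windows with no match. Each of them rose more than every matched gene but HSPA6, and they are named for that. The other genes with no match had log2 fold changes of 0.22 to 1.68, below that of the matched HSP90AA1 (2.23). For the integrated stress response, 26 of 32 genes tested had a window, and 4 of 39 windows held the composite motif (10.3%), against 545 of 35116 (1.55%). The other 2 of these were in JDP2 and CEBPG. GDF15, DDIT3, PPP1R15A and TRIB3 had windows with no match and rose more than every matched gene. The other genes with no match had log2 fold changes of -0.57 to 3.07. Only windows with a match are shown. A match of letters is a description and no evidence of binding. Only exact matches within the 250 bases were counted, so no match does not show that a gene lacks such a site.

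Cytosolic heat shock genes had the highest median change of the lists. Of 21 tested, 19 rose and 0 fell, 16 of them at least 2-fold, with a median log2 fold change of 2.23 against 0.01 over all genes tested. The shares to set beside this and later list counts are those over all genes tested. They were 28.0% higher and 28.0% lower, with 10.3% higher and 5.77% lower by at least 2-fold. The transcription factors HSF1 and HSF2 were the 2 that did not pass the test, at log2 fold changes of 0.04 ± 0.09 and 0.22 ± 0.11 (SE, n = 2 libraries a side).

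HSPA6 encodes a strictly inducible HSP70 chaperone, and its window above holds a heat shock element that starts 74 bases before the start. It was at 987 and 1022 FPKM in 1-S dark and 1-S UV-A cells, against 1.20 and 0.892 FPKM in vehicle dark and vehicle UV-A cells. The log2 fold change was 9.81 ± 0.15 (SE, n = 2 libraries a side, as for all fold changes that follow). Such an SE rests on the trend of spread over all genes. It does not measure how far the gene's own 2 libraries a side, which differ in light, lie apart. HSPA1A, the main inducible HSP70, was at 810 and 801 FPKM with 1-S and at 8.39 and 8.41 FPKM with vehicle (6.49 ± 0.12). Both 1-S libraries lay far above both vehicle libraries, and light made little difference to either gene. Most genes named here and below were chosen for a small p or a large change. That their groups stand apart follows from this choice and is no further support. HSPA1B, whose product is nearly identical, was at 2223 and 2111 FPKM with 1-S and at 30.5 and 36.3 FPKM with vehicle (5.93 ± 0.12). The counting could have split reads between HSPA1A and HSPA1B, and between HSPA6 and its neighbour HSPA7, so the share of each copy is uncertain.

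The partners of HSP70 rose too. DNAJB1, the J-domain protein that hands substrates to HSP70, was at 2646 and 2799 FPKM in 1-S cells and at 88.9 and 98.0 FPKM in vehicle cells (log2 fold change 4.77 ± 0.11). Small heat shock proteins hold unfolded protein, and the transcripts of CRYAB and HSPB8 were scarce in vehicle cells, while that of HSPB1, chosen after its values were seen, was at 598 and 640 FPKM with 1-S and at 77.1 and 76.2 FPKM with vehicle. CRYAB, the αB-crystallin gene, had 1246 reads in the 1-S libraries and 1 read in the vehicle libraries, a CPM ratio of 1350 with an exact 95% interval of 242 to 53350 that covers counting error only. HSPB8, which works with BAG3 in selective autophagy, was at 2.03 and 3.81 FPKM with 1-S and 0.108 and 0.113 FPKM with vehicle (4.58 ± 0.37). The other genes with a window shown above moved less. HSPA8, the constitutive HSP70, was at 674 and 787 FPKM in 1-S cells and 368 and 443 FPKM in vehicle cells (0.76 ± 0.09). CHORDC1, an HSP90 co-chaperone, was at 16.1 and 16.2 FPKM in 1-S cells and 5.39 and 6.17 FPKM in vehicle cells (1.40 ± 0.09). These 2 were chosen for their windows after their values were seen.

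**Figure D2:**
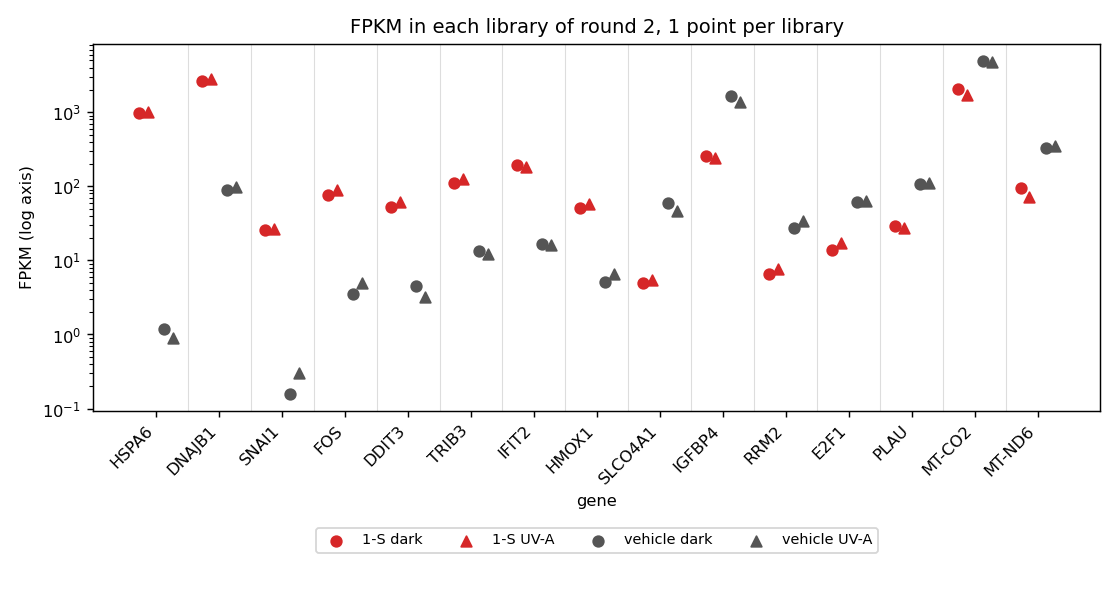
FPKM on a log axis for 15 genes, with 1 point per library: red circles and triangles for 1-S dark and 1-S UV-A, grey ones for vehicle dark and vehicle UV-A. The red points lie above the grey ones for the first 8 genes, such as HSPA6 (987 and 1022 against 1.20 and 0.892), and below them for the last 7, such as IGFBP4 (253 and 242 against 1678 and 1375).

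Genes of the integrated stress response rose as well. Of 32 tested, 28 rose, 20 of them at least 2-fold, and 3 fell, with a median log2 fold change of 1.47. The 3 that fell were the amino acid transporter SLC7A5, the transcription factor ATF5 and the proline synthesis enzyme ALDH18A1, at -0.38 to -0.57. GDF15, a secreted stress cytokine, was at 125 and 133 FPKM with 1-S and at 6.03 and 4.54 FPKM with vehicle (4.52 ± 0.11). DDIT3, which encodes the death-promoting factor CHOP, was at 52.2 and 61.1 FPKM with 1-S and at 4.48 and 3.23 FPKM with vehicle (3.78 ± 0.13). PPP1R15A, the subunit GADD34 that restores translation by dephosphorylating eIF2α, was at 546 and 573 FPKM with 1-S and at 54.2 and 65.1 FPKM with vehicle (3.14 ± 0.10). These genes were picked for their small p, and for all of them both 1-S libraries exceeded both vehicle libraries. TRIB3, a pseudokinase that feeds back on ATF4, was at 110 and 127 FPKM with 1-S and at 13.5 and 12.2 FPKM with vehicle (3.11 ± 0.10). CHAC1, which degrades glutathione and whose window is shown above, was at 34.2 and 41.2 FPKM with 1-S and at 5.02 and 5.94 FPKM with vehicle (2.69 ± 0.11). ASNS, asparagine synthetase, was low throughout, at 1.47 and 1.27 FPKM with 1-S and at 0.219 and 0.227 FPKM with vehicle (2.52 ± 0.32).

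Enzymes that load tRNA with amino acids split. Of 20 tested, 9 rose, 4 of them at least 2-fold, and 8 fell, 1 of them at least 2-fold. AARS, the alanyl-tRNA synthetase, was at 132 and 144 FPKM in 1-S cells and 42.6 and 40.4 FPKM in vehicle cells (1.64 ± 0.09). WARS, SARS and GARS, for tryptophan, serine and glycine, rose by 1.25, 1.24 and 1.23 on the log2 scale.

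The unfolded protein response of the endoplasmic reticulum was mixed, with 8 genes higher, 5 of them at least 2-fold, 7 lower and 8 not called of 23, and a median log2 fold change of 0.10. The counts of 8 higher and 7 lower were near the 28.0% each way over all genes tested. HSPA5, the reticulum's HSP70 known as BiP, was at 1716 and 1219 FPKM in 1-S cells and 331.8 and 319.4 FPKM in vehicle cells (2.06 ± 0.10). HERPUD1, which helps to clear protein from the reticulum, was at 76.6 and 83.2 FPKM with 1-S and at 16.6 and 17.2 FPKM with vehicle (2.15 ± 0.09). DNAJB9, a partner of BiP, and ERN1, the sensor IRE1α, rose by 1.61 ± 0.10 and 1.48 ± 0.09. The 7 lower calls were 1 to 4 in 5 of the alternatives, among them fits without the vehicle dark, the vehicle UV-A or the 1-S UV-A library. The chaperonin TRiC, which folds actin and tubulin, had 1 subunit higher, TCP1 (0.60 ± 0.09), 1 lower, CCT7 (-0.35 ± 0.09), and 6 not called of 8. The CCT7 call was lost without the vehicle UV-A library, at an edgeR adjusted p of 0.148, and with all 8 libraries in the fit, at 0.0544.

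**Figure D3:**
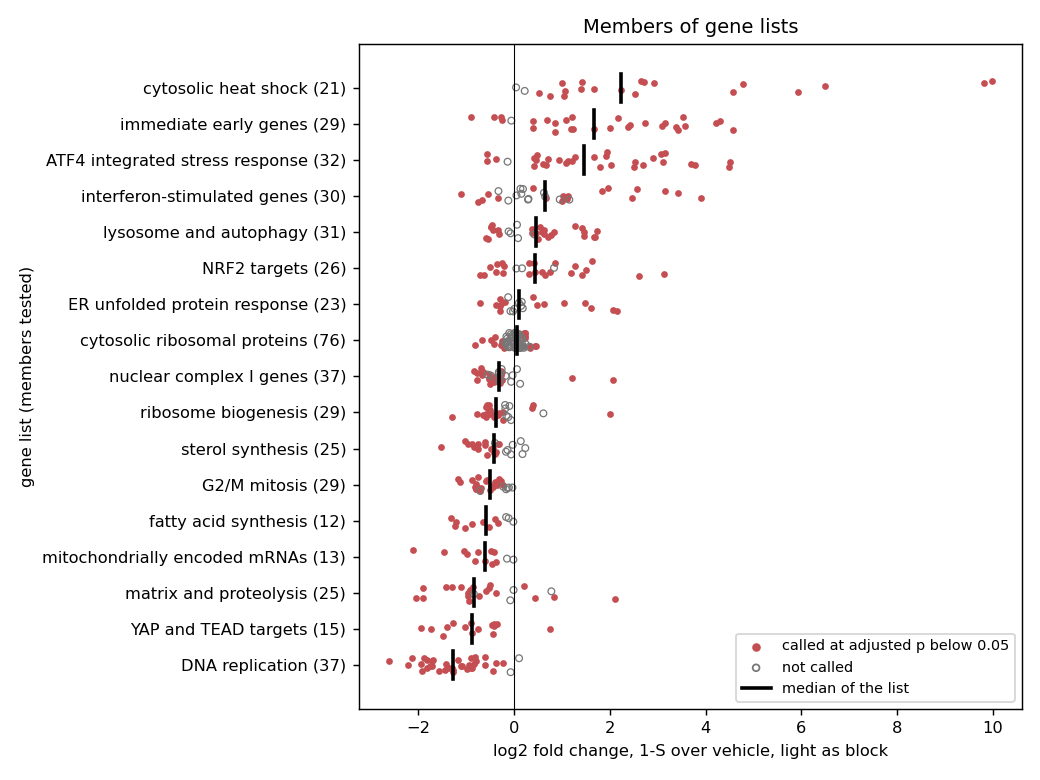
Log2 fold change of 1-S over vehicle for each tested member of 17 gene lists, with filled points for called genes, open points for genes not called and a bar at each list's median. The lists are ordered by their medians, from DNA replication at the bottom (-1.28) to cytosolic heat shock at the top (2.23); the fitted value of CRYAB at the far right rests on 1 vehicle read.

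Immediate early genes were higher 24 h after the compound was added. Of 29 tested, 24 rose, 19 of them at least 2-fold, and 4 fell, with a median of 1.67. FOS, a subunit of the AP-1 transcription factor, was at 77.1 and 88.8 FPKM with 1-S and at 3.52 and 4.98 FPKM with vehicle (4.21 ± 0.11). ARC, an early gene best known in neurons, was at 50.9 and 63.3 FPKM with 1-S and at 2.37 and 2.11 FPKM with vehicle (4.57 ± 0.11). ATF3, which both stress programmes and early signals induce, was at 18.9 and 22.7 FPKM with 1-S and at 1.90 and 1.70 FPKM with vehicle (3.43 ± 0.12). These genes were picked for their small p, and no vehicle library came near a 1-S library in any of them. DUSP1, a phosphatase that switches off MAP kinases, was at 204 and 265 FPKM with 1-S and at 22.6 and 26.3 FPKM with vehicle (a called rise). The genes that fell were FOSL1, FOSL2, IER3 and CYR61, the first 2 being AP-1 subunits and CYR61 also a YAP target. Most negative regulators of the MAP kinase path went the other way, with 11 of 18 lower and 3 higher. Of the higher ones, 1 rose at least 2-fold, DUSP10, at 14.6 and 15.6 FPKM with 1-S and at 5.26 and 4.26 FPKM with vehicle (1.58 ± 0.12). DUSP6, the ERK phosphatase, was at 36.0 and 42.8 FPKM with 1-S and at 117 and 101 FPKM with vehicle (-1.56 ± 0.09), DUSP4 was lower by a similar amount (-1.69 ± 0.09), and SPRY1, a feedback inhibitor of receptor signalling, was at 5.01 and 4.37 FPKM with 1-S and at 24.8 and 24.1 FPKM with vehicle (-2.47 ± 0.10).

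Some interferon-stimulated genes rose. Of 30 tested, 13 rose, 10 of them at least 2-fold, 5 fell and 12 were not called. IFIT2, an RNA-binding antiviral protein, was at 193 and 180 FPKM with 1-S and at 16.8 and 15.9 FPKM with vehicle (3.42 ± 0.10). OASL, a relative of the oligoadenylate synthetases, was at 23.4 and 24.7 FPKM with 1-S and at 1.73 and 1.31 FPKM with vehicle (3.90 ± 0.13). IFIT1 and IFIT3 rose by 3.14 ± 0.10 and 2.57 ± 0.09. Values of other members, chosen after they were seen, included lower ones, with the restriction factors IFITM2 and IFITM3 at -0.74 and -0.66. Among NF-kB targets 12 of 18 rose and 4 fell. PTGS2, the inducible cyclooxygenase, was at 12.01 and 7.80 FPKM in 1-S cells and 2.25 and 1.47 FPKM in vehicle cells (2.32 ± 0.13), while the cytokine gene CSF2 was at 1.10 and 2.40 FPKM in 1-S cells and 11.1 and 7.30 FPKM in vehicle cells (-2.50 ± 0.29).

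The targets of NRF2, which guards against oxidants, were 15 higher, 7 of them at least 2-fold, and 8 lower of 26. HMOX1, haem oxygenase, was at 50.2 and 58.5 FPKM with 1-S and at 5.14 and 6.61 FPKM with vehicle (3.12 ± 0.10). The ferritin subunits FTH1 and FTL, which store iron, rose by 1.63 ± 0.09 and 1.503 ± 0.09, and OSGIN1 by 2.60 ± 0.14. NQO1, a classical target, was at 0.05 and did not pass the test. The 15 higher calls were 9 with DESeq2 and 9 without the vehicle UV-A library. Of 31 lysosome and autophagy genes, 18 rose, 7 of them at least 2-fold, and 8 fell. MAP1LC3B, the autophagosome protein LC3B, was at 75.9 and 86.3 FPKM in 1-S cells and 23.6 and 22.4 FPKM in vehicle cells (1.72 ± 0.09), and the cargo receptor SQSTM1 was at 112 and 123 FPKM in 1-S cells and 41.4 and 40.6 FPKM in vehicle cells (1.42 ± 0.09). Of 25 p53 targets, 10 rose, 2 fell and 13 were not called. Those with the smallest p were GADD45B (2.65 ± 0.10), SESN2 (2.51 ± 0.10), CDKN1A, the inhibitor p21 (2.16 ± 0.09), and GADD45A (2.07 ± 0.09), which other stress paths induce as well. MDM2, the feedback regulator of p53, was at 4.83 and 4.73 FPKM in 1-S cells and 4.91 and 5.13 FPKM in vehicle cells, and did not pass the test at -0.16 ± 0.09 with an edgeR adjusted p of 0.127.

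DNA replication genes fell almost as a group. Of 37 tested, 35 fell, 22 of them at least 2-fold, and 0 rose, with a median of -1.28. RRM2, the small subunit of ribonucleotide reductase, which makes deoxynucleotides, was at 6.63 and 7.59 FPKM with 1-S and at 27.6 and 34.0 FPKM with vehicle (-2.20 ± 0.10). E2F1, which switches on S-phase genes, was at 13.9 and 17.1 FPKM with 1-S and at 62.2 and 63.9 FPKM with vehicle (-2.12 ± 0.09). MCM6 and MCM5, subunits of the replicative helicase, fell by 1.92 ± 0.10 and 1.89 ± 0.09. These genes too were picked for their small p, and the 1-S libraries lay below the vehicle libraries in each of them. The 2 genes not called were ORC6 (0.10) and GINS3 (-0.07). Since RNA came from whole wells, fewer cells in S phase and less RNA in each such cell cannot be told apart. Mitotic genes fell less, with 23 of 29 lower, 2 of them at least 2-fold, and 0 higher, at a median of -0.51. TOP2A, topoisomerase IIα, was at 62.9 and 65.8 FPKM in 1-S cells and 132 and 140 FPKM in vehicle cells (-1.17 ± 0.09), and the spindle motor KIF11 was at 25.2 and 25.3 FPKM in 1-S cells and 49.5 and 54.8 FPKM in vehicle cells (-1.13 ± 0.09). With all 8 libraries in the fit, 12 mitotic genes were called lower.

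Most genes of the mitochondrial respiratory chain were lower, on both genomes. Of the 13 mRNAs encoded in mitochondria, 11 fell, 3 of them at least 2-fold, and 0 rose, with a median of -0.61. MT-ND6, a complex I subunit and the one mRNA from the light strand, was at 95.3 and 71.0 FPKM with 1-S and at 326 and 345 FPKM with vehicle (-2.11 ± 0.09). It lies antisense to other mitochondrial transcripts, and no source used here says if reads were counted by strand, so its level is uncertain. MT-CO2, a subunit of cytochrome oxidase, was at 2082 and 1728 FPKM with 1-S and at 4971 and 4775 FPKM with vehicle (-1.45 ± 0.09). MT-ND3 was at 684 and 707 FPKM with 1-S and at 1233 and 1468 FPKM with vehicle (-1.04 ± 0.09). These 3 genes had the lowest log2 fold changes of the 13, and in them the groups stood well apart. The complex I gene MT-ND1 was at 1252 and 981 FPKM with 1-S and at 1224 and 1509 FPKM with vehicle (-0.39 ± 0.09), so its groups overlapped. MT-ND5 fell by 0.97, MT-CYB by 0.81, MT-CO1 by 0.75, MT-CO3 by 0.61, MT-ND2 by 0.48, MT-ATP6 by 0.45 and MT-ND4 by 0.42. Each of the 13 had a lower log2 ratio under UV-A than in the dark, a difference that was not tested. Each ratio sets 1 library against 1 library, and all 13 genes share these libraries, so they are not independent observations. The ratios of MT-ATP8 rest on 13 to 20 reads in a library. In the dark the ratios of MT-ND1, MT-ND2, MT-ATP6 and MT-ND4 were -0.05, -0.21, -0.25 and -0.21. Under UV-A they were -0.72, -0.75, -0.66 and -0.64. MT-ND4L (-0.15 ± 0.09) and MT-ATP8 (-0.01 ± 0.60) did not pass the test. In this list 7 genes were called without the vehicle UV-A library and 2 with all 8 libraries in the fit. All mitochondrial transcripts together held 2.87 and 2.40% of the reads in 1-S cells and 3.02 and 3.12% in vehicle cells.

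**Figure D4:**
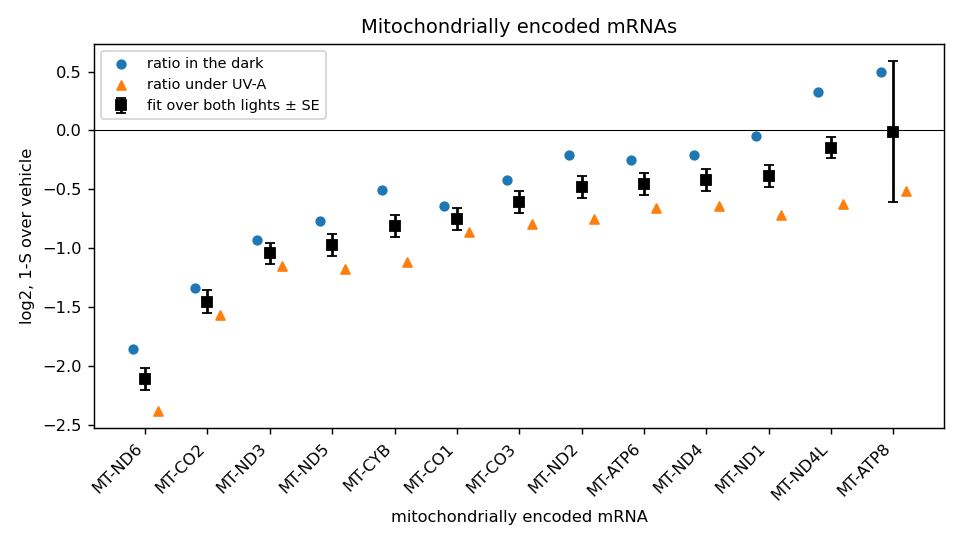
Log2 change of 1-S over vehicle for the 13 mitochondrially encoded mRNAs: black squares are the fit over both lights with its SE, blue circles the CPM ratio in the dark and orange triangles that under UV-A. MT-ND6 (-2.11), MT-CO2 (-1.45) and MT-ND3 (-1.04) lie lowest, and the triangle lies below the circle for each gene.

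Nuclear genes of complex I were 24 lower and 2 higher of 37, and those of complexes II to V 26 lower and 0 higher of 37, with medians of -0.32 and -0.33. Most of these changes were small. Only ATP5G1, a subunit of the ATP synthase ring, was lower by at least 2-fold. It was at 9.33 and 9.82 FPKM in 1-S cells and 19.4 and 18.6 FPKM in vehicle cells (-1.08 ± 0.11). Both higher genes of complex I rose at least 2-fold, at low levels. Of these, NDUFV2 was at 2.6 and 2.34 FPKM in 1-S cells and 0.621 and 0.492 FPKM in vehicle cells (2.06 ± 0.29). DESeq2 called 14 and 17 lower in the 2 lists. Of 15 mitochondrial chaperones and proteases, 5 were higher and 5 lower, near the 28.0% each way over all genes tested. HSPD1, the chaperonin HSP60, was at 258 and 281 FPKM with 1-S and at 111 and 121 FPKM with vehicle (1.12 ± 0.09). HSPA9, the HSP70 of mitochondria, was at 168 and 188 FPKM with 1-S and at 83.0 and 90.6 FPKM with vehicle (0.95 ± 0.09), and HSPE1, the cap of the chaperonin, rose by 1.70 ± 0.18. TRAP1, the HSP90 of mitochondria, fell (-0.89 ± 0.11), as did the protease SPG7 (-0.72 ± 0.09).

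Glycolysis genes were 16 lower and 3 higher of 24, among them LDHA, lactate dehydrogenase, at 84.2 and 97.1 FPKM in 1-S cells and 230 and 222 FPKM in vehicle cells (-1.41 ± 0.09). The glucose transporters moved apart, with SLC2A3 higher (1.84 ± 0.09) and SLC2A1 lower (-1.02 ± 0.09). Sterol synthesis genes were 17 lower and 0 higher of 25, with a median of -0.43. With upper-quartile scaling 2 sterol genes were called higher, and without either 1-S library 1 was. Fatty acid synthesis genes were 9 lower and 0 higher of 12, with SCD, stearoyl-CoA desaturase, at 152 and 139 FPKM in 1-S cells and 327 and 307 FPKM in vehicle cells (-1.22 ± 0.09). Hypoxia targets were 10 higher and 9 lower of 22, led by the peptide hormone ADM, at 82.9 and 81.0 FPKM in 1-S cells and 11.02 and 16.03 FPKM in vehicle cells (2.53 ± 0.10). Ribosome assembly factors were 19 lower and 3 higher of 29, with UTP20 at -1.30 ± 0.09. Most ribosomal protein genes were not called, with 11 higher, 8 lower and 57 not called of 76, and a median of 0.05.

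YAP and TEAD targets, which respond to cell shape, were 14 lower and 1 higher, the kinase LATS2, of 15, with a median of -0.87. NT5E, the ectonucleotidase CD73, was at 58.5 and 57.4 FPKM with 1-S and at 214 and 204 FPKM with vehicle (-1.94 ± 0.09). ANKRD1, a classical YAP target, was at 186 and 210 FPKM with 1-S and at 485 and 492 FPKM with vehicle (-1.39 ± 0.09). Matrix and proteolysis genes were 17 lower and 4 higher of 25, with PLAU, the urokinase, at 29.1 and 27.2 FPKM in 1-S cells and 107 and 111 FPKM in vehicle cells (-2.04 ± 0.09), and with the collagen COL1A1 at 7.09 and 6.39 FPKM in 1-S cells and 1.45 and 1.49 FPKM in vehicle cells (2.11 ± 0.11). Of the 8 markers of the line, 7 were lower and VIM was not called (-0.02 ± 0.09). CAV1, the coat protein of caveolae, was at 44.0 and 45.3 FPKM in 1-S cells and 118 and 119 FPKM in vehicle cells. AXL, a receptor tyrosine kinase, was at 149 and 123 FPKM in 1-S cells and 291 and 323 FPKM in vehicle cells (-1.27 ± 0.09). KRT18, a luminal keratin, was lower too (-0.89 ± 0.09), and FOXA1, a luminal factor, was at 2.08 and 2.05 FPKM in 1-S cells and 0.812 and 0.843 FPKM in vehicle cells (1.23 ± 0.23).

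Among single protein-coding genes outside the stress lists, the largest rises included regulators of transcription and signalling. SNAI1, a repressor that drives loss of cell adhesion, was at 26.0 and 26.9 FPKM with 1-S and at 0.158 and 0.2999 FPKM with vehicle (6.75 ± 0.22). GADD45G, a stress sensor, was at 32.0 and 33.3 FPKM with 1-S and at 0.235 and 0.348 FPKM with vehicle (6.70 ± 0.22). RGS2, which damps G protein signals, was at 51.0 and 55.3 FPKM with 1-S and at 1.92 and 1.89 FPKM with vehicle (4.71 ± 0.12). Its relative RGS16 rose by 4.73 ± 0.22. CH25H, cholesterol 25-hydroxylase, had 221 reads in 1-S libraries and 4 in vehicle libraries, a CPM ratio of 59.8 (exact 95% interval 23.04 to 222). The chemokine gene CCL26 had 131 reads in 1-S libraries and 3 in vehicle libraries, a ratio of 47.3 (15.8 to 232). ID2, an inhibitor of differentiation factors and a BMP target, was at 12.3 and 15.8 FPKM with 1-S and at 0.402 and 0.938 FPKM with vehicle (4.32 ± 0.19).

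The largest falls were smaller than the largest rises. SLCO4A1, an organic anion transporter, was at 4.88 and 5.47 FPKM with 1-S and at 59.3 and 45.7 FPKM with vehicle (-3.43 ± 0.10). IGFBP4, a secreted binder of insulin-like growth factors, was at 253 and 242 FPKM with 1-S and at 1678 and 1375 FPKM with vehicle (-2.71 ± 0.10). DMBT1, a scavenger receptor protein, was at 0.244 and 0.377 FPKM with 1-S and at 2.84 and 3.15 FPKM with vehicle (-3.38 ± 0.18). In each, the groups did not overlap, which follows from choosing the lowest called genes. LFNG, which glycosylates Notch, fell by 2.91 ± 0.17. The other genes among the 12 lowest, TMEM19, SERTAD4, E2F2, SH3TC2, CSF2, CPA4, SPRY1 and ADAMTS15, fell by 2.42 to 2.64.

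Of the gene IDs that the round 1 tables lack, 3867 had a read and 704 were tested. They held 1.85 and 1.73% of the reads in 1-S dark and 1-S UV-A, against 1.38 and 1.45% in vehicle dark and vehicle UV-A. Called were 123 higher (17.5%) and 106 lower (15.1%), against 28.5% and 28.7% of the 14730 genes whose ID both rounds hold. At least 2-fold and called were 89 higher (12.6%) and 65 lower (9.23%), against 10.2% and 5.60% of the shared genes, so the order of the shares depends on the rule. UHRF1, which guides maintenance of DNA methylation in S phase, was the only protein-coding gene among the 10 with the most extreme changes. It was at 7.12 and 7.17 FPKM in 1-S cells and 28.0 and 34.3 FPKM in vehicle cells (-2.21 ± 0.09), near the changes of the replication genes above. The highest was MIR3189, a microRNA gene at chr19:18386562-18386634 (GRCh38, plus strand), with 11 and 17 reads in 1-S cells and 0 reads in vehicle cells. Set against a floor of 3 reads over the vehicle libraries, MIR3189 was 10.1-fold higher. That floor leaves out the counting error of the 1-S reads, and the exact 95% lower limit of the ratio was 7.69. It lies within GDF15 (chr19:18374731-18389176, plus strand), which rose as well, and overlapping genes may share reads. DESeq2 did not call MIR3189, at an adjusted p of 0.25. The processed pseudogene RP11-50D9.4 was at 13.2 and 11.9 FPKM with 1-S and at 1.15 and 0.746 FPKM with vehicle (3.61 ± 0.48), and the antisense gene RP11-284F21.10 at 2.59 and 2.78 FPKM with 1-S and at 0.344 and 0.242 FPKM with vehicle (3.09 ± 0.29); pseudogenes and antisense genes can take reads from other transcripts. RN7SL146P and RP11-888D10.4 were higher too, and RP11-677M24.1, CTD-2545G14.4, RNA5SP317 and RP11-44B19.1 lower, most on few reads.

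1-S was compared last with its S-oxide 1-SO, which carries an oxo group on the sulfur and was given at the same dose for the same time in round 1. This was 1 pair of compounds, each set against the vehicle of its own round in 1 edgeR fit of all 8 libraries with 2 residual degrees of freedom. Compound, round and passage changed together and cannot be told apart. Of 16391 genes tested on shared IDs, 874 (5.33%) had effects that differed at an adjusted p below 0.05, with 490 (2.99%) higher for 1-S and 384 (2.34%) lower. At least 2-fold were 531 (3.24%), with 350 (2.14%) higher and 181 (1.10%) lower. The count was 102 without the replicate block of light (83 higher, 19 lower). Fits that leave out a library have no light term either, and gave 3510 calls without the 1-SO UV-A library, 599 without the 1-SO dark library, and 8 to 17, all of them higher, without any 1 of the vehicle or 1-S libraries. Of 21 heat shock genes, 18 were higher for 1-S, 14 without the replicate block, with 6 or 7 in those smallest fits. The list's median log2 ratio was 2.29 in the dark and 2.16 under UV-A for 1-S, against -0.10 in the dark and -0.23 under UV-A for 1-SO.

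Since gene lengths behind FPKM differ between rounds, ratios over the vehicle of the same round are given. HSPA1A had log2 CPM ratios of 6.51 and 6.47 for 1-S dark and 1-S UV-A, against -0.26 and 0.32 for 1-SO dark and 1-SO UV-A, and its effects differed by 6.45 ± 0.24 (95% interval 5.91 to 6.99, edgeR adjusted p = 8.21e-06). HSPA6 had ratios of 9.59 and 10.04 for 1-S, against -0.12 and 1.99 for 1-SO, and its effects differed by 8.35 ± 0.55. SNAI1 had ratios of 7.17 and 6.32 for 1-S, against 0.54 and 1.16 for 1-SO, and its effects differed by 5.82 ± 0.40. In these 3 genes both 1-S ratios stood above both 1-SO ratios, which follows from choosing the highest called differences. CRYAB was listed at 0 in both 1-SO libraries, so no fold is given. Of the genes lower for 1-S, the keratin-associated KRTAP2-3 differed by -2.76 ± 0.52, the cytokine gene CSF2 by -2.17 ± 0.53, TMEM19 by -2.14 ± 0.33, the trans-Golgi protein TGOLN2 by -1.92 ± 0.18 and RRM2 by -1.86 ± 0.17. None of these lower calls was kept in the fits without any 1 of the vehicle or 1-S libraries, and those of KRTAP2-3, CSF2 and RRM2 were lost without the replicate block. Of the 10 genes named for this difference, HSPA1A and HSPA1B kept the call in each of those fits.

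Of 29 immediate early genes, 16 were higher for 1-S than for 1-SO (2 without the replicate block), of 30 interferon-stimulated genes 9 (5 without it), of 37 DNA replication genes 10 were lower (0 without it), and of 15 YAP and TEAD targets 6 were lower (0 without it). Over all 16391 genes tested, 2.99% were higher and 2.34% lower. Without the block, 83 of all genes were higher and 19 lower. For FOS the effects differed by 3.73 ± 0.19 and for IFIT2 by 3.48 ± 0.21. The next 3 lists are given for their 1-SO ratios, which were unlike in the dark and with light, and were chosen after their values were seen; other lists, such as sterol synthesis and both lists of ribosomal proteins, also had 0 calls. The median log2 ratio of the integrated stress response genes was 1.59 in the dark and 1.34 under UV-A for 1-S, against -0.01 in the dark and 1.30 under UV-A for 1-SO, and 4 of 32 were higher for 1-S, beside 2.99% over all genes, namely DDIT3, GDF15, NUPR1 and PPP1R15A. That of the mitochondrially encoded mRNAs was -0.42 in the dark and -0.80 under UV-A for 1-S, against 0.22 in the dark and -1.64 under UV-A for 1-SO, and 0 of 13 differed at the threshold. MT-ND6 had a difference of -0.62 with a 95% interval of -2.68 to 1.44, which does not show that the compounds act alike. Mitotic genes were at -0.44 in the dark and -0.61 under UV-A for 1-S, against -0.06 in the dark and -1.04 under UV-A for 1-SO, and TOP2A had a difference of -0.46 with an interval of -1.25 to 0.33. The 1-SO UV-A library had 0.930% of its reads in mitochondrial transcripts, against 2.40 to 3.12% in the 1-S and vehicle libraries of round 2, and without it 22 of the 32 stress response genes were called higher for 1-S, 8 of the 13 mitochondrial mRNAs lower and 8 of the mitotic genes lower.

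**Figure D5:**
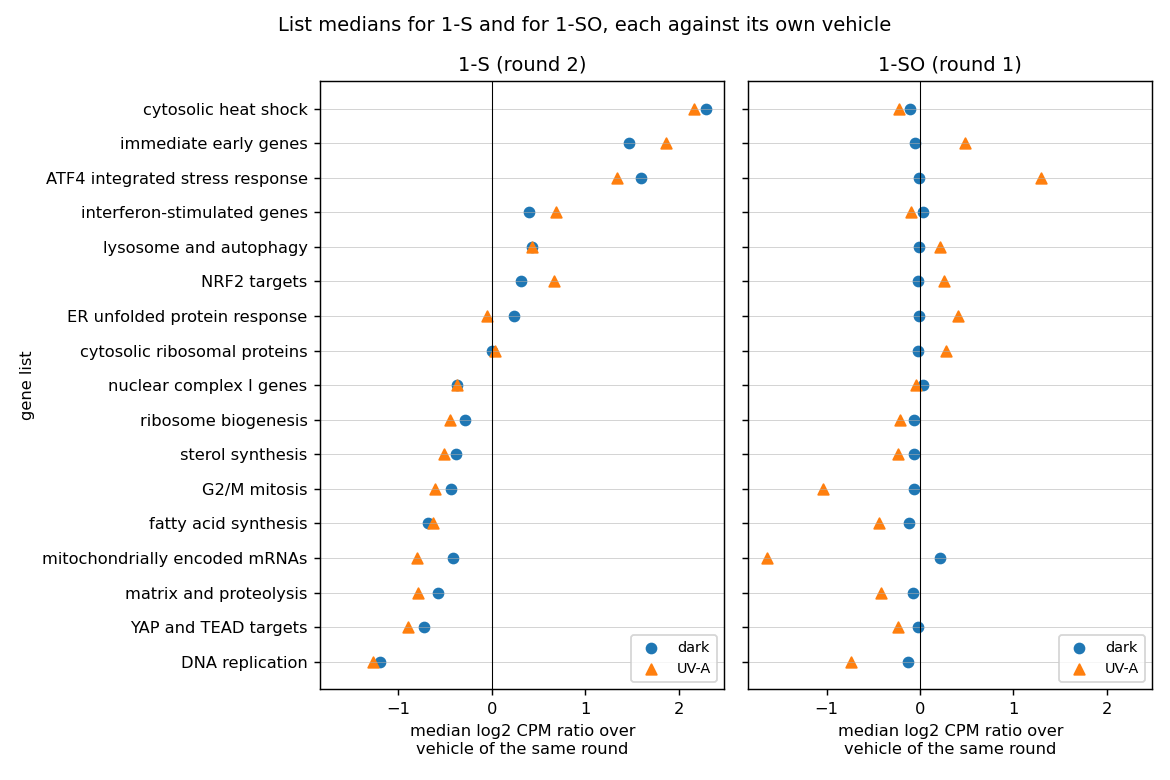
Median log2 CPM ratio over the vehicle of the same round and light for 17 gene lists, for 1-S (left panel) and 1-SO (right panel), with blue circles for the dark and orange triangles for UV-A. For 1-S the circle and triangle lie close together for heat shock genes (2.29 and 2.16) and less so for mitochondrially encoded mRNAs (-0.42 and -0.80). For 1-SO they part further in some lists, as for mitochondrially encoded mRNAs (0.22 and -1.64).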

How the data were processed

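Per the labels' protocols, poly-T beads captured the mRNA. The 4 libraries of round 2 were analysed, with those of round 1 only in the comparison with 1-SO. The authors' deposited tables hold whole-number read counts per gene, not normalized, and FPKM values that the authors scaled by gene length and library total. The authors' deposited comparison tables give a log2 fold change, p-values and adjusted p-values for single libraries. The submitters' processing notes list HTSeq 0.6.1 and edgeR 3.16.5, DESeq2, TopHat, STAR 2.5 with STAR-Fusion, and 2 builds (hg38, hg19), without roles. Use of the strand in counting is not given in the sources used. Round 2 coordinates are on GRCh38.

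Counts were tested with edgeR 4.0.16 in R 4.3.3 (TMM factors, a minimum count of 10 by filterByExpr, quasi-likelihood test, Benjamini-Hochberg adjustment over all genes tested, called at 0.05), with light, which is also the plate, as a block. The residual degree of freedom was 1 and the estimated prior degrees of freedom were infinite, at a biological coefficient of variation of 7.40%, so the spread of each gene is the trend over genes and very small p-values are not printed. The labels give light as the block; the changes from dark to UV-A of 1-S and vehicle cells correlated at 0.103 across 10958 genes. Standard errors were the log2 fold change divided by the square root of F. Ratios within a light condition were of CPM with 0.5 reads added and have no test. Intervals and limits cover counting error alone, because such reads are not independent molecules, apart from those of differences between compounds, which come from the fit.

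Alternatives were RLE and upper-quartile factors, no filter, a filter on FPKM of at least 1, DESeq2 1.42.0, limma 3.58.1, no light term, each library left out (without the light term, which would leave no residual degree of freedom), no mitochondrial genes and all 8 libraries. The pipeline was tested on simulated data. Genes named were, with a mean FPKM of at least 1, the 12 highest and 12 lowest called protein-coding genes, up to 4 members with the smallest p in each list, the 13 mitochondrial mRNAs, 5 highest and 5 lowest genes missing from round 1, the 4 most opposed between lights, and the 5 highest and 5 lowest for the difference from 1-SO; the genes with a promoter shown, HSF1, HSF2, VIM, NQO1, MDM2, ORC6, GINS3, LATS2, NUPR1, HSPB1, TRAP1, IFITM2, IFITM3 and the 3 and 4 lower members of the stress response and early gene lists fall outside this rule and were chosen after their values were seen. The genes, lists and comparisons were chosen with earlier results of these data known. Lists were described by counts with no set test.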

Additional observations from a re-analysis of the deposited data

Results flagged for a closer look

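The 1-S effect differed from the 1-SO effect for 874 genes, by the test of the difference itself in edgeR, with compound, round and passage changing together. Each effect was taken as 1 value over both light conditions.

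In the 4 most opposed genes with a mean FPKM of at least 1, the ratio of 1-S over vehicle ran in opposite directions by light, and the difference between light conditions was not tested. The log2 ratio of the pseudogene PFN1P3 was 1.69 in the dark and -3.28 under UV-A. That of CTD-3018O17.5 was -1.16 in the dark and 1.87 under UV-A. That of RP11-1376P16.2 was -1.19 in the dark and 1.12 under UV-A. For RP11-599J14.2 it was 1.497 in the dark and -1.11 under UV-A. None of these 4 genes was called over both light conditions. All 4 had few reads, from 1 to 27 in a library, and were chosen for their opposed ratios. The UV-A ratio of PFN1P3 rests on 1 read in 1-S UV-A and 15 reads in vehicle UV-A.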

How the results depend on the processing

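No call over both light conditions was called in the other direction under any alternative run. Beside 8641 calls (4314 higher, 4327 lower), RLE factors gave 8646, upper-quartile factors 8647, no filter 8063, the FPKM filter 7522, limma 8756, all 8 libraries 6130 and DESeq2 5807, of which 2781 were higher. Without the replicate block of light the count was 8265, and leaving out each library, also with no light term, gave 6389 to 7569. The 2-fold rule, added after the data were examined, gave 2483 (1593 higher, 890 lower). Of the values of named genes under these alternatives, 2338 stayed on their side of the threshold, 51 lost the call and 9 gained one; of the list counts 894 stayed within 1.5 times and 90 did not. For the difference from 1-SO, beside 874 (490 higher, 384 lower), limma gave 541 (322 higher, 219 lower), no replicate block 102 (83 higher, 19 lower), the 2-fold rule 531 (181 lower), and leaving out each library 8 to 3510, with 8 to 1581 higher and 0 to 1929 lower. There 56 of the values of named genes lost the call and 74 kept it. The cause was not tested. ASB2 and CTD-2545G14.4, the first with 9 reads in 1-S and 31 in vehicle libraries and the second with 4 and 22, were called but lost the call with DESeq2, at adjusted p of 0.264 and 0.192.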

Other observations

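Transcripts of other kinds showed values that no comparison above covers. Of 18 host transcripts of small nucleolar RNAs, 12 were higher with 1-S, 5 of them at least 2-fold, and 2 lower. GAS5, which is degraded while it is translated, was at 59.7 and 64.3 FPKM in 1-S dark and 1-S UV-A cells and 21.7 and 25.4 FPKM in vehicle dark and vehicle UV-A cells (edgeR log2 fold change 1.31 ± 0.09 SE, n = 2 libraries a side). The nuclear long noncoding RNA MALAT1 was at 196 and 126 FPKM in 1-S cells and 53.8 and 48.6 FPKM in vehicle cells (1.53 ± 0.09), and NEAT1, the scaffold of paraspeckles, was at 28.8 and 15.2 FPKM in 1-S cells and 9.27 and 6.25 FPKM in vehicle cells (1.37 ± 0.09). Of 7 tested genes of the TXNIP and arrestin list 3 were higher and 0 lower, with ARRDC3 at 28.5 and 29.8 FPKM in 1-S cells and 6.55 and 5.62 FPKM in vehicle cells (2.17 ± 0.10). Aryl hydrocarbon receptor targets were 1 higher and 3 lower of 7. CYP1A1 was at 1.37 and 1.27 FPKM in 1-S cells and 2.26 and 2.37 FPKM in vehicle cells (-0.90 ± 0.22), while TIPARP was higher (0.77 ± 0.09). Metallothionein and zinc transport genes were 3 higher, 2 lower and 2 not called of 7 tested, with a median log2 fold change of -0.09. The zinc exporter SLC30A1 was at 19.04 and 15.6 FPKM in 1-S cells and 7.88 and 7.89 FPKM in vehicle cells (1.04 ± 0.09), while SLC39A10 was lower (-0.58 ± 0.10). Replication-dependent histone genes were 7 lower and 1 higher of 21, few of which end in a poly-A tail that the selection of RNA would capture.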
